A study of Mus musculus with 12 samples.

Results

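The mitochondrial carriers of the solute carrier family 25 (Slc25) were followed across 4 mouse tissues and 3 genotypes. All genes whose symbol was Slc25a followed by a number were taken from the array's probe table, which gave 44 of the 18193 genes with a probe set of a single symbol. Each was read by its probe set of highest mean over the 12 arrays, so the choice rested on the name and on brightness. That mean includes every tissue, so a probe set can be chosen through 1 tissue in which it is bright. A difference in favour of that tissue is then not independent of the choice. Thymus, heart, lung and liver came from Sv/129 mice aged 2 months, which were wild type (WT), lacked p53 (p53-/-) or lacked p66Shc (p66-/-), a redox protein encoded by Shc1 that acts in mitochondria. RNA pooled from 4 mice was put on 1 array for each tissue and genotype, 12 arrays in all. The 3 arrays of a tissue therefore differ in genotype, and no source used here states whether the tissues of a genotype came from the same mice. The p-values below measure the spread between such arrays, and their number limits the precision.

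The inner mitochondrial membrane lets few ions or metabolites through unaided, and the Slc25 proteins form the largest family of transporters that carry them across. They share a fold built from repeats, and each exchanges or takes up a narrow set of substrates. Adenine nucleotide translocases return ADP to the matrix and send ATP out, the phosphate carrier feeds ATP synthase, and other members move citrate, dicarboxylates, amino acids, nucleotides, coenzyme A, acylcarnitines, iron or glutathione. Heart relies on the carriers of oxidative phosphorylation, and liver on those of the urea cycle and of biosynthesis. A few members sit in the peroxisome or the outer membrane instead.

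The promoter windows of 2 pairs of relatives or neighbours are shown because their members differed in tissue pattern below. Slc25a4 and Slc25a5 encode adenine nucleotide translocases 1 and 2, and Slc25a29 and Slc25a47 follow one another among the protein-coding genes of 1 chromosome. Each window is the 250 bases before the annotated start, 5′ to 3′ on the gene's strand, from RefSeq on GRCm38.p6. Capitals mark CCAAT and GGGCGG (the CCAAT and GC boxes) on either strand. TATAAA, the TATA box, was searched too and is not in these 4 windows.
Slc25a4 (chr8:46211063-46211312, minus strand): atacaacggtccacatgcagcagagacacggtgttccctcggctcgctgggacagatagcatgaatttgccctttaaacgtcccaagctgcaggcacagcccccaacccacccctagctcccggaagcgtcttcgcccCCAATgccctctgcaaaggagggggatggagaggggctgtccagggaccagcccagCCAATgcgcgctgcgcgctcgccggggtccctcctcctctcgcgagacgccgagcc
Slc25a5 (chrX:36795347-36795596, plus strand): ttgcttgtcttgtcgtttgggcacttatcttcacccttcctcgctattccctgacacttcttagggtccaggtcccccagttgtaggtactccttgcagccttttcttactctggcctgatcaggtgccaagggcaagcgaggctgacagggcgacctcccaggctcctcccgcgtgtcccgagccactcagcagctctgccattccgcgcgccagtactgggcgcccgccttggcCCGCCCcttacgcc
Slc25a29 (chr12:108835877-108836126, minus strand): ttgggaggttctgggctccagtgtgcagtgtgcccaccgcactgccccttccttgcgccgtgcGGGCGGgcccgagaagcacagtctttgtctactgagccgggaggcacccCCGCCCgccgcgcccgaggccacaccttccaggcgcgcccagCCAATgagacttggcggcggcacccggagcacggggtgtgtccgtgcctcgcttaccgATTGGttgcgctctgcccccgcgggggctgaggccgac
Slc25a47 (chr12:108850879-108851128, plus strand): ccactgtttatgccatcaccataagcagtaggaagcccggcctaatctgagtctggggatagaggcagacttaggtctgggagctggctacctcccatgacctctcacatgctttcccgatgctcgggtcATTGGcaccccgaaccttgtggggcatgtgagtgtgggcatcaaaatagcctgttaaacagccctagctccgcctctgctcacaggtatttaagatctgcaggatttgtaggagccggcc
A window was found for 34 of the 44 genes, 43 windows in all. CCAAT lay in 20 of the 43, against 33.8% of all 32851 mouse windows of this length. GGGCGG lay in 32 of the 43, against 32.7%, and TATAAA in 1, against 12.4%. The Slc25a4 window holds CCAAT 2 times and no GGGCGG, and the Slc25a5 window holds GGGCGG once and no CCAAT. The windows of Slc25a29 and Slc25a47 differ in CpG, with 25 and 6 such dinucleotides. A match is a description of the letters and shows no bound factor.

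Signals are log2 values on which 1 unit is 2-fold, and levels of different genes are not compared because each probe set binds its target with its own strength. The members were brighter than most genes, with a median signal of 8.40 over the 12 arrays against 7.24 for all genes, and 33 lay above that median. Marker genes lay where the tissue labels place them. Of the lists, 8 of 8 cardiomyocyte genes were higher in heart, 9 of 9 hepatocyte genes in liver, 6 of 7 lung epithelial genes in lung and 6 of 8 thymocyte genes in thymus. Some arrays stood apart. Salivary gland markers averaged 14.4 on the WT thymus array against 5.17 (p53-/-) and 5.12 (p66-/-), and 8.43 on the WT heart array against 5.41 and 5.75. Hepatocyte markers averaged 11.4 in WT and 10.5 in p66-/- lung but 7.30 in p53-/- lung, and skeletal muscle markers 9.70 in p53-/- thymus against 6.53 in WT. Gapdh probes near the 3′ end minus those near the 5′ end, a sign of RNA quality, gave 2.29 in WT, 0.66 in p53-/- and 1.32 in p66-/- lung. The p53 transcript was not analysed here, and Shc1 read 8.57 to 9.83 over the arrays by a probe set that no source places in the deleted part. Neither gene therefore checks the genotype labels.

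The first question was which carrier goes with which tissue. Each tissue was set against the mean of the other 3 with limma over all genes, and a gene was called at an adjusted p under 0.05 and a difference of 1 or more. By this rule 22 of 44 members were called in at least 1 tissue. Of these, 21 were higher somewhere, and Slc25a13 was higher in 2 tissues. Liver held the most, with 14 members higher (31.8%, against 8.33% of all genes) and 4 lower (9.09%, against 8.75%). Heart had 6 higher (13.6%, against 5.04%) and 7 lower (15.9%, against 9.85%). Lung had 2 higher (4.55%, against 9.25%) and 8 lower (18.2%, against 3.97%). Thymus had 0 higher (against 7.11%) and 6 lower (13.6%, against 8.56%). The median difference of the members was 0.20 in liver and -0.28 in lung, against -0.08 and -0.12 for all genes. With the WT thymus and WT lung arrays left out, liver still had 14 higher and lung 2 higher.

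**Figure D1:**
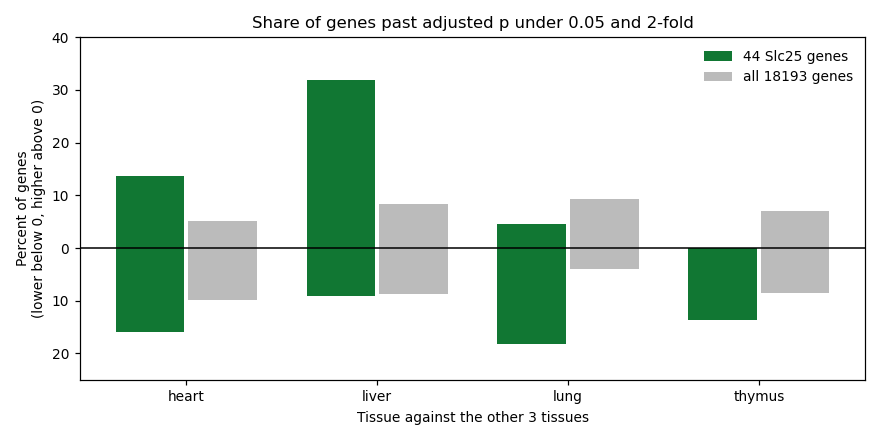
Percent of the 44 Slc25 genes (green) and of all 18193 genes (grey) that were called higher (above 0) or lower (below 0) in each tissue against the other 3, at an adjusted p under 0.05 and 2-fold. Green exceeds grey for liver higher (31.8% against 8.33%), heart higher and lung lower, and no Slc25 gene was higher in thymus.

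**Figure D2:**
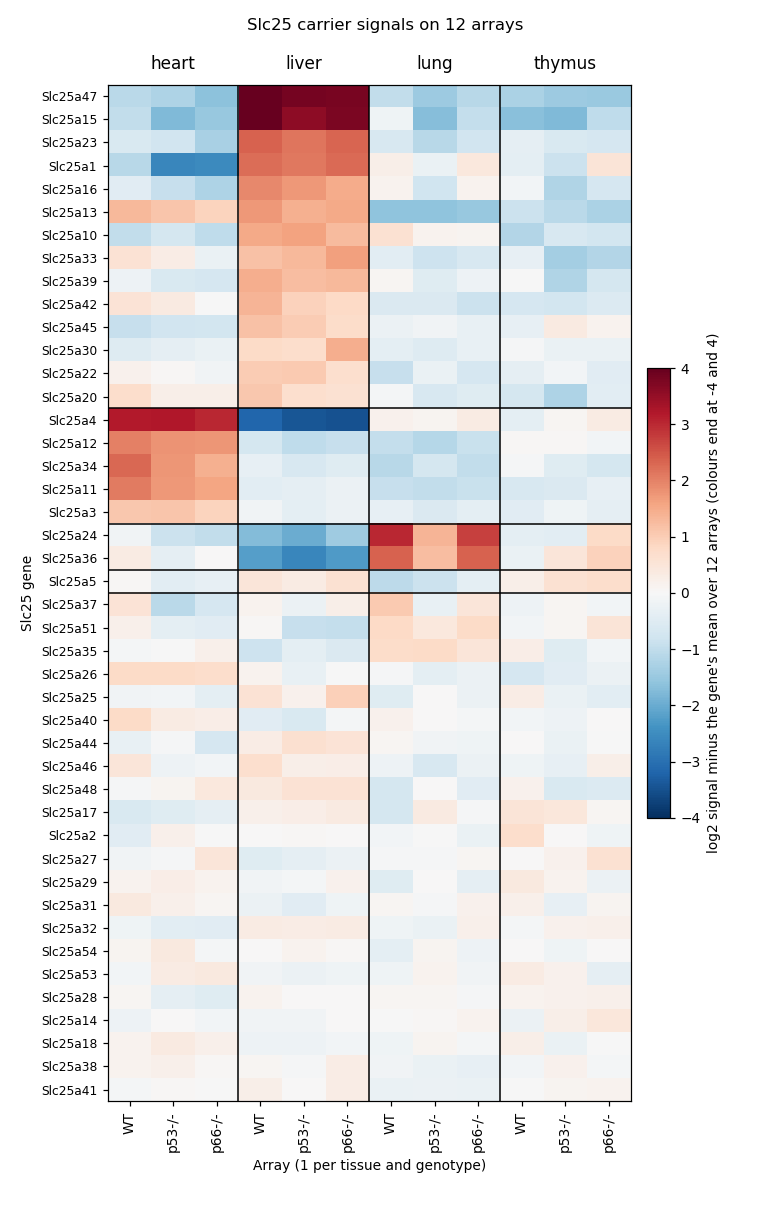
Log2 signal of each of the 44 Slc25 genes minus its mean over 12 arrays, with the 3 genotypes side by side within each tissue. Horizontal lines part, from the top, genes whose largest called increase was in liver, in heart and in lung, then Slc25a5, which was called lower in lung alone, then the 22 genes called in no tissue.

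Slc25a4 and the phosphate carrier Slc25a3, which serve ATP synthesis, were called higher in heart, while the other adenine nucleotide translocases were not. Slc25a4, adenine nucleotide translocase 1, read 14.09, 14.11 and 13.92 in heart (WT, p53-/- and p66-/-, here and below). It read 11.09, 11.03 and 11.25 in lung, 10.51, 10.97 and 11.24 in thymus, and 7.74, 7.50 and 7.44 in liver. Every heart array lay above every other array and every liver array below. The heart excess was 4.18 ± 0.16 (SE, here and below), or 18.1-fold, with an adjusted p of 4.51e-08. Liver against the rest gave -4.47 ± 0.16, and heart exceeded liver 89.5-fold (adjusted p = 6.44e-09), while lung and thymus did not pass the test between them. This probe set ends in _x_at and may bind related transcripts, and its other 3 probe sets gave different sizes in heart. The brightest gave 4.18 in heart and -4.61 in liver. The next, nearly as bright, gave -3.95 in liver but 1.03 in heart. It read 11.32, 10.92 and 11.09 in heart, 11.38, 11.54 and 11.73 in thymus, and 11.43, 10.97 and 11.53 in lung, so by this probe set heart did not lie above lung or thymus. The third was dim and gave 1.65 in heart. As the mean of all 4, the heart excess was 2.76.

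Slc25a5, adenine nucleotide translocase 2, had another order. It read 12.12, 11.66 and 11.76 in heart, 12.55, 12.40 and 12.67 in liver, 11.01, 11.21 and 11.69 in lung, and 12.30, 12.69 and 12.77 in thymus. Heart was lower than liver (-0.69, adjusted p = 0.0243) and thymus (-0.74, adjusted p = 0.0165). Thymus and liver lay above heart and lung, with no difference past the test inside either pair. Lung was lower, at -1.02 ± 0.16 (adjusted p = 0.000854), which became -0.87 without the WT lung array and is then under the 2-fold threshold. Thymus was higher by 0.69 ± 0.16 (adjusted p = 0.00796), the larger of the 2 thymus increases past the adjusted p alone, and Slc25a27 was the other at 0.35 ± 0.12. Slc25a31, translocase 4, which is known from testis, read 3.77 to 4.61 on all 12 arrays, low on this scale, and was called nowhere. The phosphate carrier Slc25a3 read 13.46, 13.49 and 13.27 in heart and 11.79 to 12.22 on the other 9 arrays, a heart excess of 1.37 ± 0.13 (adjusted p = 1.83e-05). As the mean of all its probe sets that excess was 0.80.

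The malate-aspartate shuttle brings reducing power from cytosolic NADH into the matrix. Its carriers were called higher in heart, and Slc25a13 in liver as well. Slc25a12, the aspartate-glutamate carrier aralar, read 10.45, 10.22 and 10.21 in heart and 7.30 to 8.49 elsewhere, a difference of 2.49 ± 0.11 (5.60-fold, adjusted p = 1.62e-07). Slc25a13, its relative citrin, read 10.55, 10.25 and 10.34 in liver, 10.13, 9.96 and 9.72 in heart, 7.97, 7.77 and 7.56 in thymus and 7.22, 7.22 and 7.32 in lung. All 6 tissue pairs passed the test for Slc25a13, the one member of which this was true, and liver exceeded heart by 1.36-fold (adjusted p = 0.0443). In Slc25a12 the order was heart, then thymus, then liver and lung, which did not pass the test between them. Its dimmer probe sets gave 0.42 and 0.14 in heart. As the mean of all its probe sets, the liver and lung differences of -1.17 and -1.31 became -0.46 and -0.55, under 2-fold. Slc25a11, the 2-oxoglutarate-malate exchanger that completes the shuttle, read 11.68, 11.35 and 11.19 in heart and 8.63 to 9.38 elsewhere, a heart excess of 2.38 ± 0.14 (adjusted p = 7.38e-07). The shuttle's enzymes Got1, Got2, Mdh1 and Mdh2 were higher in heart in 4 of 4 cases (Got1 at 3.14) and lower in lung in 4 of 4 (Got1 at -2.91). In liver 2 of 4 were higher. Of 9 genes of mitochondrial content, such as citrate synthase and cytochrome c, 7 were higher in heart and 5 were lower in lung, with a median over the 9 of 1.52 in heart. The part of mitochondrial content in the carrier differences was not tested.

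Slc25a34, whose substrate is not settled, was the other heart member. It read 10.50, 9.97 and 9.61 in heart, against 7.85, 7.56 and 7.73 in liver, 7.09, 7.48 and 7.21 in lung, and 8.16, 7.70 and 7.50 in thymus. The heart excess was 2.44 ± 0.17 (adjusted p = 3.08e-06), and the other 3 tissues did not pass the test between neighbours in their order. Of the 6 heart members, 5 had no overlap with any other array, the exception being Slc25a13.

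Liver was set apart by carriers of the urea cycle and of biosynthesis. Slc25a15 exchanges ornithine for citrulline across the inner membrane and so links the matrix and cytosolic steps of the urea cycle. It read 12.85, 12.21 and 12.39 in liver, 8.46, 6.95 and 7.69 in lung, 7.67, 6.89 and 7.11 in heart, and 6.98, 6.87 and 7.62 in thymus. The liver excess was 5.13 ± 0.22 (34.9-fold, adjusted p = 2.36e-08), and its other probe set gave 2.06. Slc25a2, the second ornithine transporter, read 4.11 to 5.26 on all arrays and no tissue pair passed the test. That is low on this scale, where the lowest value on any array was 3.26. Its lack of a difference therefore cannot be read as even expression. Of 5 urea cycle enzymes 4 were higher in liver (Otc by 6.73, Cps1 by 6.46).

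Slc25a47, a carrier without a settled substrate here, had the largest liver difference of all members. It read 12.27, 12.02 and 11.99 in liver and 6.54 to 7.20 on the other 9 arrays, a difference of 5.21 ± 0.13 (adjusted p = 1.6e-09). Heart, lung and thymus did not pass the test between them. Its neighbour in gene order, Slc25a29, a carrier of basic amino acids, read 8.16, 8.24 and 8.49 in liver within a range of 7.83 to 8.71 over all arrays, and no pair of tissues passed the test. Slc25 genes were next to each other in this way in 2 further places. Slc25a41 stands beside Slc25a23 and Slc25a54 beside Slc25a24, and in both pairs 1 member was called in a tissue while the other was called in none. The members not called, Slc25a41 and Slc25a54, had mean signals of 4.80 and 4.94, low on this scale, which limits that contrast.

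**Figure D3:**
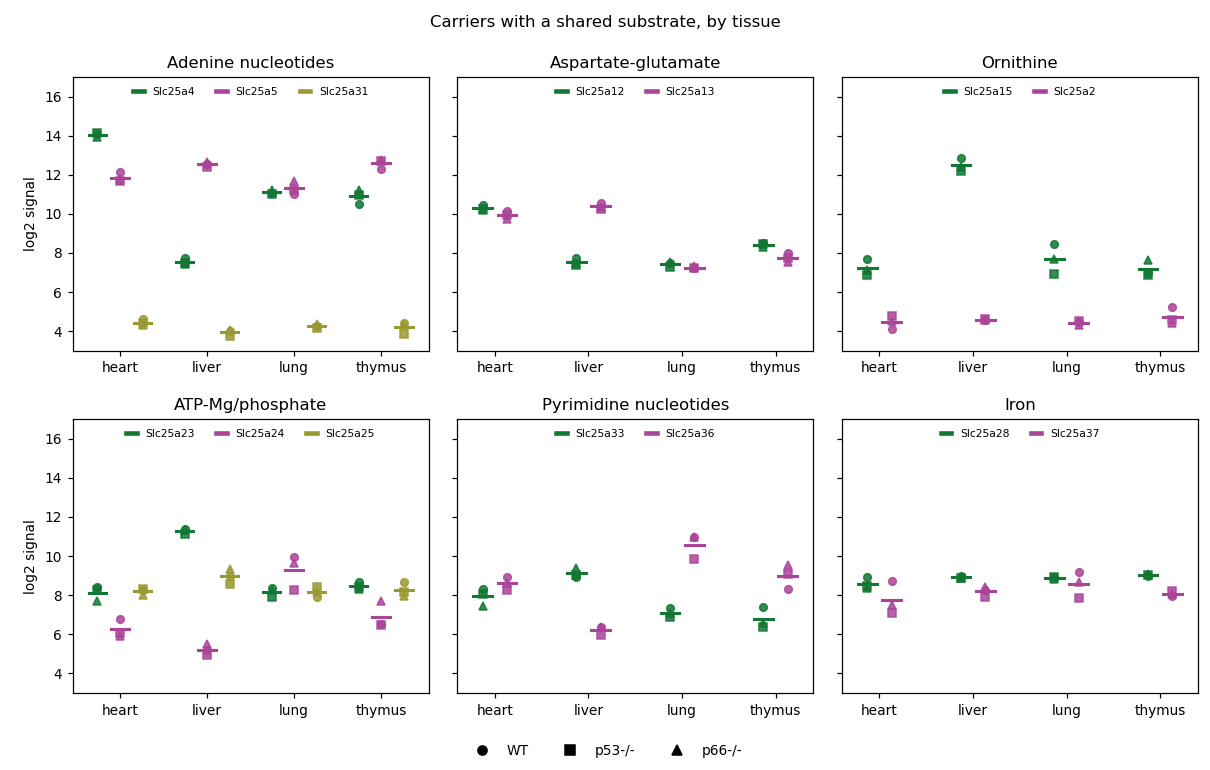
Log2 signal (vertical axis) of carriers that share a substrate, by tissue, with 1 point per array (circle WT, square p53-/-, triangle p66-/-) and a bar at the mean of the 3 arrays. By the probe sets used, Slc25a4 peaks in heart where Slc25a5 does not, and Slc25a33 and Slc25a36 take opposite places in liver and lung. Slc25a15 peaks in liver, while Slc25a2 stays between 4.11 and 5.26, low on this scale. Heights of different genes are not comparable.

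Slc25a1 exports citrate to the cytosol, where it supplies acetyl groups for fatty acid and sterol synthesis. It read 11.58, 11.48 and 11.61 in liver and 8.23, 6.75 and 6.81 in heart, with lung (9.60, 9.09 and 9.78) and thymus (8.96, 8.50 and 9.85) between. Liver was higher by 2.94 ± 0.29 (adjusted p = 1.73e-05) and heart lower, at -2.79 ± 0.29 (adjusted p = 4.39e-05). The 3 enzymes that use exported citrate, Acly, Acaca and Fasn, were all lower in heart (Acly at -2.73), while in liver 1 of 3 was higher (Acly at 1.20). Slc25a10, which exchanges malate or succinate for phosphate, was higher in liver by 1.94 ± 0.16 and lower in heart (-1.21) and thymus (-1.12). It read 10.17, 10.26 and 9.93 in liver and no more than 9.28 on any other array. The thymus call was lost without the WT thymus array (-0.91). The other probe set of Slc25a10, nearly as bright, gave 1.34 in liver, -0.21 in heart and -0.89 in thymus. As the mean of both, the heart difference was -0.71, under 2-fold.

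Coenzyme A, acyl groups and glutathione followed. Slc25a16 and Slc25a42, both linked to coenzyme A, were higher in liver by 2.28 ± 0.19 and 1.37 ± 0.14. Slc25a16 read 9.62, 9.42 and 9.20 in liver and 6.48 to 7.85 elsewhere. The other probe set of Slc25a42 gave -0.06 in liver, and the mean of both gave 0.65, under 2-fold. Slc25a20 carries acylcarnitines into the matrix for fatty acid oxidation and was called in liver at 1.05 ± 0.15, with liver not past the test against heart and overlapping it. That call is close to the threshold and fell below it in 4 alternatives. Slc25a39, a glutathione carrier, read 13.62, 13.42 and 13.49 in liver and 10.97 to 12.25 elsewhere, a liver excess of 1.77 ± 0.15 (adjusted p = 6.87e-06). Its relative Slc25a40 read 6.20, 6.04 and 6.56 in liver, its lowest tissue, and was called nowhere. Slc25a22, glutamate carrier 1, was higher in liver by 1.22 ± 0.14. Slc25a18, glutamate carrier 2, read 5.23 to 5.88, low on this scale, with no tissue pair past the test. The other liver members were Slc25a30, related to the uncoupling proteins, and Slc25a45, both at 1.30. The other probe sets of Slc25a30 gave 2.41, 0.95, 0.35 and, for the dimmest, -0.05 in liver. As the mean of all its probe sets the difference was 0.99, just under 2-fold. In 13 of the 14 liver members every liver array lay above every array of the other tissues, Slc25a20 being the exception.

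The ATP-Mg/phosphate carriers, which load the matrix with adenine nucleotides, divided by tissue. Slc25a23 read 11.37, 11.15 and 11.34 in liver and 7.70 to 8.66 elsewhere, a difference of 3.04 ± 0.15 (8.21-fold, adjusted p = 6.52e-08). Slc25a24 read 9.94, 8.28 and 9.64 in lung, 6.79, 6.06 and 5.92 in heart, 6.52, 6.5 and 7.68 in thymus, and 5.19, 4.93 and 5.50 in liver. Lung was higher by 3.17 ± 0.29 (8.98-fold, adjusted p = 1.93e-05) and liver lower, at -2.28 ± 0.29. No array of another tissue reached the lowest lung array, which was p53-/-. Slc25a25 read 7.91 to 9.35 and Slc25a41, low on this scale, 4.53 to 5.10, and neither was called in any tissue. The dimmer second probe set of Slc25a24 gave a lung excess of 0.53.

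A like split held for the pyrimidine nucleotide carriers, which supply the matrix for mitochondrial DNA and RNA synthesis. Slc25a33 read 8.92, 9.05 and 9.38 in liver, 8.33, 8.04 and 7.47 in heart, 7.41, 6.37 and 6.58 in thymus, and 7.33, 6.91 and 7.09 in lung. Its liver excess was 1.84 ± 0.21 (adjusted p = 5.84e-05). Slc25a36 read 10.96, 9.84 and 10.97 in lung, 8.34, 9.09 and 9.52 in thymus, 8.95, 8.24 and 8.61 in heart, and 6.39, 5.99 and 6.35 in liver. Lung was higher by 2.64 ± 0.25 (6.25-fold) and liver lower, at -3.15 ± 0.25 (adjusted p = 3.73e-06), so liver was the highest tissue of one gene and the lowest of the other. Its 2 dimmer probe sets gave lung differences of 0.42 and 0.98. With the WT thymus and WT lung arrays left out, Slc25a24 and Slc25a36 still exceeded the rest in lung by 2.86 and 2.43.

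The largest lung deficits were those of the shuttle and liver carriers, led by Slc25a13 at -2.11 ± 0.12 (adjusted p = 7.34e-07), Slc25a47 at -1.57 and Slc25a12 at -1.31. Slc25a15, Slc25a11, Slc25a34, Slc25a23 and Slc25a5 were the other 5, between -1.26 and -1.02. Heart was lower in 7 members, each of them also called higher in liver: Slc25a1, Slc25a15 (-1.89), Slc25a47 (-1.77), Slc25a10, Slc25a23 (-1.19), Slc25a16 (-1.17) and Slc25a45 (-1.07). The 6 thymus members were Slc25a15 (-1.98), Slc25a47 (-1.87), Slc25a13 (-1.42), Slc25a33 (-1.27), Slc25a10 and Slc25a20 (-1.04). Each contrast sets a tissue against the mean of the other 3, so a high liver or heart signal lowers the other tissues by construction. In the tissue pairs, lung did not pass the test against liver or thymus for Slc25a34, against thymus for Slc25a11, or against liver for Slc25a12. For Slc25a15, Slc25a47 and Slc25a23, lung did not pass it against heart or thymus. Slc25a13 was lower in lung than in each of the other 3, and Slc25a5 than in liver and thymus.

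Iron carriers and 20 other members were called in no tissue. Slc25a28 and Slc25a37, mitoferrins 2 and 1, import iron for haem and iron-sulphur clusters. Slc25a28 read 8.36 to 9.07 on all arrays, and Slc25a37 read 7.07 to 9.21 with no tissue pair past the test. The rest were Slc25a2, Slc25a14, Slc25a17, Slc25a18, Slc25a25, Slc25a26, Slc25a27, Slc25a29, Slc25a31, Slc25a32, Slc25a35, Slc25a38, Slc25a40, Slc25a41, Slc25a44, Slc25a46, Slc25a48, Slc25a51, Slc25a53 and Slc25a54. Of the 22, 10 lay below the median signal of all genes, against 1 of the 22 called members, and for 8 members no tissue pair passed the test. Slc25a26, the S-adenosylmethionine carrier, came nearest, at 0.99 ± 0.14 in heart (adjusted p = 0.000336).

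Proteins that work beside the family were counted in the same fit. Of 15 other carriers and channels of the mitochondrial membranes, 4 were higher and 2 lower in liver, 3 higher and 2 lower in heart, 1 higher and 2 lower in lung, and 1 higher in thymus. The shares of all genes given above apply here too, and a list of this size allows no statement against them. Sfxn2 and Sfxn1, sideroflexins, a family that includes a mitochondrial serine transporter, were higher in liver by 1.69 and 1.29 and lower in heart. Mpc1, of the pyruvate carrier, was higher in heart by 1.38 and lower in lung, at -1.27. Of 12 genes that import carrier proteins, 4 were higher in liver (Timm9 by 1.61) and 2 in heart (Timm10 by 1.58), while 2 were lower in lung.

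The second question was how each knock-out compared with WT in the same tissue. These are single arrays with no replicate check and no test. Both knock-outs share the WT array, so an odd WT array moves both together, and the difference of the knock-outs from each other is given beside them. The threshold of 2-fold was reached by 10 members in at least 1 tissue, and by 2 of them, both in heart, in both knock-outs.

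In heart, p53-/- had 2 members lower (4.55%, against 2.08% of all genes) and 0 higher (against 0.115%). The p66-/- array had 2 lower (4.55%, against 1.67%) and 0 higher (against 0.181%). Slc25a1 read 8.23 in WT, 6.75 in p53-/- and 6.81 in p66-/-, 2.80-fold and 2.69-fold lower. Slc25a37 read 8.70, 7.07 and 7.49, 3.10-fold and 2.32-fold lower, and each gene has 1 probe set. Between the knock-outs the same genes differed by -0.06 and -0.41 (p53-/- minus p66-/-). Acly, which splits the exported citrate, differed from WT heart by -0.99 and -0.90. Salivary gland markers were lower than in WT heart in 7 of 8 cases in p53-/- and 4 of 8 in p66-/-, hepatocyte markers in 8 of 9 and 0 of 9, adipocyte markers in 1 of 5 and 2 of 5, and myeloid markers in 2 of 7 and 3 of 7, by 2-fold. Erythroid markers, given because mitoferrin 1 serves haem synthesis in red cell precursors, were 2-fold different in 0 of 6 in either knock-out. Their part in the carrier values was not tested. Over all members the median difference was -0.16 in p53-/- and -0.30 in p66-/- heart, against 0.03 and -0.0039 for all genes. In p66-/- heart 33 of 44 members were below 0, while 49.6% of all genes were above 0. Other mitochondrial lists had medians below 0 there too. They were -0.28 for mitochondrial content, -0.46 for carrier import and -0.39 for other carriers and channels. In p53-/- heart the same lists gave -0.02, -0.39 and -0.37.

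In liver 1 member reached 2-fold. The p53-/- array had 0 higher (against 0.0934%) and 0 lower (against 0.418%), and p66-/- had 0 higher (against 0.0824%) and 1 lower (2.27%, against 0.302%). That member was Slc25a51, the NAD carrier, which read 9.89, 8.91 and 8.88 (WT, p53-/-, p66-/-). It lay 1.97-fold and 2.00-fold lower, on either side of the threshold, and its 2 other probe sets were lower too (-1.28 and -1.56, -0.80 and -0.86). The carriers that mark liver, Slc25a15 and Slc25a47, differed from WT by -0.64 and -0.25 in p53-/- and by -0.46 and -0.28 in p66-/-.

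Lung had 5 members at 2-fold in p53-/-, 4 lower (9.09%, against 4.14%) and 1 higher (2.27%, against 0.616%). In p66-/- lung 0 were higher (against 0.341%) and 0 lower (against 0.313%). Slc25a24 read 9.94, 8.28 and 9.64, Slc25a36 read 10.96, 9.84 and 10.97, and Slc25a15 read 8.46, 6.95 and 7.69. The p53-/- array was the lowest of the 3 for each. Slc25a37 read 9.21, 7.87 and 8.65, and the peroxisomal carrier Slc25a17 read 7.36, 8.42 and 8.01. Thus Slc25a24 and Slc25a36, the carriers highest in lung, were 3.16-fold and 2.18-fold lower in p53-/- than in WT lung, and differed by -1.36 and -1.13 from p66-/- lung. Other probe sets did not give one direction. The dim second probe set of Slc25a24 was higher by 1.29, those of Slc25a36 gave 0.17 and -0.82, and that of Slc25a15 gave 0.04. For Slc25a17 the other probe set gave 0.18, and the mean of its probe sets gave 0.62, under 2-fold. On the same array hepatocyte markers were lower by 2-fold in 9 of 9 cases, skeletal muscle markers in 5 of 8 and myeloid markers in 3 of 7, and 18S probe sets averaged 9.79 against 5.52 in WT. The part of these in the carrier values was not tested.

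In thymus, p53-/- had 3 members lower (6.82%, against 4.81%) and 0 higher (against 8.89%). The p66-/- array had 2 higher (4.55%, against 12.7%) and 0 lower (against 4.78%). Slc25a39 read 12.17, 10.97 and 11.49, Slc25a16 read 7.59, 6.49 and 7.03, and Slc25a33 read 7.41, 6.37 and 6.58. All 3 were highest on the WT array. The 4 other probe sets of Slc25a39 were lower as well, from -0.87 to -1.35 in p53-/-. Slc25a24 read 6.52, 6.5 and 7.68 and Slc25a36 read 8.34, 9.09 and 9.52, so that p66-/- was highest for both. The 2 dimmer probe sets of Slc25a36 were instead lower, at -0.30 and -0.34 in p66-/-. The dim second probe set of Slc25a24 gave 0.20 in p66-/-, against 1.16 by the one used. Salivary gland markers were lower in 8 of 8 cases in both knock-outs, and thymocyte markers were 2-fold higher in 4 of 8 in both. In p53-/- skeletal muscle markers were higher in 8 of 8 and cardiomyocyte markers lower in 7 of 8. Lung epithelial markers, given because Slc25a24 and Slc25a36 were highest in lung, were 2-fold higher in 3 of 7 in p66-/-. In p53-/- they were 2-fold lower in 2 of 7. The 18S probe sets averaged 5.97 on the p66-/- thymus array, against 10.9 in WT and 10.3 in p53-/-. Slc25a1 and Slc25a24 were the members 2-fold apart between the knock-outs, at -1.35 and -1.18. A bulk sample cannot tell fewer cells of a type from less RNA per cell. The part of these cell types and of the 18S signal in the carrier values was not tested.

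**Figure D4:**
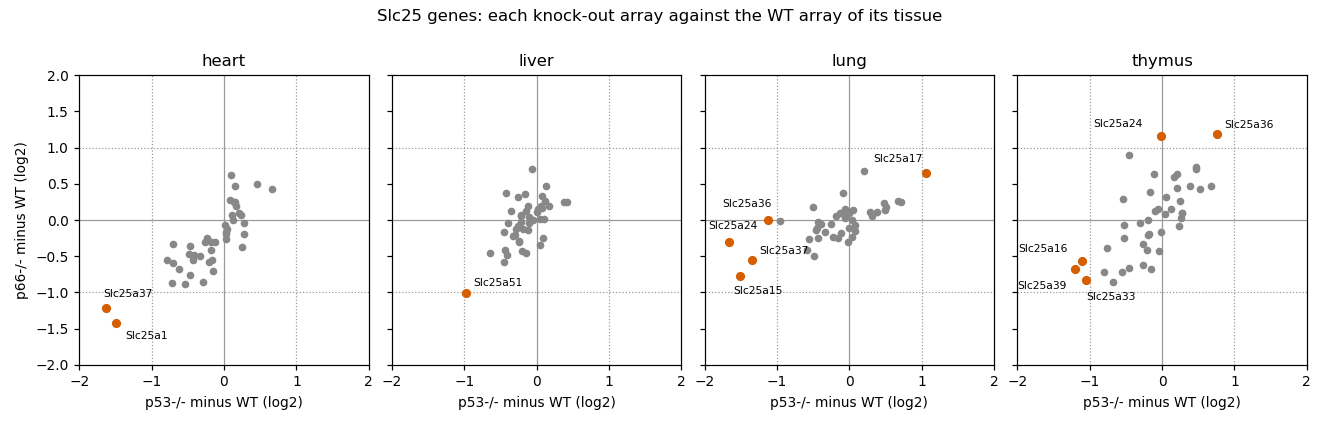
Each point is a Slc25 gene, at p53-/- minus WT (horizontal, log2) and p66-/- minus WT (vertical, log2) in 1 tissue. Dotted lines mark 2-fold, and orange points reach it in either knock-out and are named. Slc25a1 and Slc25a37 lie past both lines in heart, and in liver Slc25a51 alone reaches the threshold. Both axes share the WT array.

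Across the 4 tissues, with tissue as a block in limma and all 12 arrays, 0 members were called in p53-/- (against 0.0055% of all genes, which is 1 gene) and 0 in p66-/- (against 0.0%). At an unadjusted p under 0.05 there were 6 members in p53-/-, while 10.3% of all genes passed, and 2 in p66-/-, while 3.94% passed. The members of lowest p in p53-/- were Slc25a39 at -0.59 ± 0.16, Slc25a15 at -0.76 ± 0.23, Slc25a16 at -0.68 ± 0.21, Slc25a20 at -0.50 ± 0.16 and Slc25a37 at -0.76 ± 0.28, with adjusted p from 0.304 to 0.405. The first 4 were below WT in 4 of 4 tissues and Slc25a37 in 3 of 4. In p66-/- they were Slc25a27 at 0.40 ± 0.13, Slc25a39 at -0.39 ± 0.16, Slc25a42 at -0.33 ± 0.15, Slc25a47 at -0.29 ± 0.13 and Slc25a34 at -0.39 ± 0.18, all with an adjusted p of 1.0.

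The p53-/- count changed when thymus was left out. In thymus both the WT array (salivary gland markers) and the p53-/- array (skeletal muscle markers) stood apart, and their part in the change was not tested. Over heart, liver and lung, 3 members were called, all lower, among 384 genes (2.11%): Slc25a15 at -0.98 ± 0.17 (adjusted p = 0.0216), Slc25a37 at -1.11 ± 0.23 (adjusted p = 0.0348) and Slc25a36 at -0.74 ± 0.17 (adjusted p = 0.0484). The WT lung array, with its Gapdh difference of 2.29, is among the 9 arrays of this fit. With the WT thymus and WT lung arrays left out instead, and the other thymus and lung arrays kept, 0 members were called, and the same 3 gave -0.85, -0.96 and -0.66 with adjusted p of 0.0646, 0.121 and 0.123. In lung the other probe set of Slc25a15 gave 0.04 and those of Slc25a36 gave 0.17 and -0.82. For p66-/- without thymus 0 members were called, among 5 genes (0.0275%). Hepatocyte markers, whose tissue Slc25a15 marks, were 2-fold lower in p53-/- heart in 8 of 9 cases and in p53-/- lung in 9 of 9, and their part in this was not tested.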

How the data were processed

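Total RNA of thymus, heart, lung and liver was hybridized by the authors to 12 Affymetrix Mouse Genome arrays. The authors deposited a log2 signal for each probe set, made in Partek 6.5 with RMA (background correction, quantile normalization, median polish). Of 45101 probe sets, 64 controls, 932 with several symbols and 9160 without one were set aside. Each of 18193 genes was read by its probe set of highest mean, and 5 of the 44 Slc25 genes then rest on one ending in _x_at or _s_at. Groups came from the labels. limma 3.58.1 (R 4.3.3) was fitted with tissue and genotype as additive terms, leaving 6 residual degrees of freedom, with Benjamini-Hochberg adjustment over all genes, and was tested on simulated data. Tissue calls needed an adjusted p under 0.05 and 2-fold, while tissue pairs and knock-outs across tissues needed the adjusted p alone. Within a tissue, knock-out minus WT was counted at 2-fold without a test. The text names called members (up to 10 per tissue and direction by size), the 5 of lowest p per knock-out, those at 2-fold within a tissue, relatives that share a substrate, and up to 4 genes of each other list. Members not covered by this rule are named to account for all 44. The members, the marker and pathway lists and the tests were chosen with earlier results of these data known, and the salivary gland list in particular. Promoter windows came from RefSeq. Alternatives covered the probe set, normalization, thresholds, variance prior, genotype term, dim genes and arrays. Python 3.11.15, pandas 2.3.3 and matplotlib 3.10.9 were used.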

Additional observations from a re-analysis of the deposited data

How the results depend on the processing

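No value changed direction under the alternatives listed in the methods, where the probe sets of a gene were averaged. Single other probe sets did differ in direction, in 3 of 44 tissue values (Slc25a12, Slc25a30 and Slc25a42 in liver). Among 2-fold knock-out differences they did so in p53-/- lung for Slc25a24 (1.29), Slc25a15 (0.04) and Slc25a36 (0.17, with -0.82 by another). In p66-/- thymus they did so for Slc25a36 (-0.30 and -0.34). Of 47 calls of a gene in a tissue, 14 fell below 2-fold in at least 1 alternative and all 14 kept an adjusted p under 0.05. With 1 array left out there were 7 of these: Slc25a5 in lung (WT heart, WT lung or p53-/- thymus), Slc25a10 in thymus (WT thymus), Slc25a16 and Slc25a23 in heart (p66-/- heart), Slc25a23 in lung (p53-/- lung), and Slc25a20 in liver (p53-/- liver or thymus) and in thymus (WT or p53-/- thymus). With 1 array left out, counts of members higher ranged from 6 to 7 in heart, 13 to 14 in liver, 2 to 3 in lung and 0 to 0 in thymus, and lower from 5 to 8, 4 to 5, 7 to 8 and 5 to 7. With the adjusted p alone, 10 members were higher and 13 lower in heart, and 20 higher and 11 lower in liver. Lung then had 4 higher and 16 lower, and thymus 2 higher and 15 lower. With 4-fold, 1 was lower in heart, 6 higher in liver, 1 lower in lung and 0 lower in thymus. No share of all genes is given at either threshold, so these counts allow no statement against it. Among brighter genes alone, 1 was higher in lung. Without thymus, 3 members were called in p53-/- across tissues. With the WT thymus and WT lung arrays left out together, an alternative chosen after seeing the data, 0 were called in either knock-out.

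Within a tissue, 1.5-fold gave 8 members in p53-/- and 10 in p66-/- heart, 2 and 3 in liver, 9 and 3 in lung, and 8 and 16 in thymus. At 3-fold there were 1 and 0 in heart, 0 in p66-/- liver, 1 in p53-/- lung, and 0 and 0 in thymus. No share of all genes is given at 1.5-fold or 3-fold, so these counts too allow no statement against it. With the other knock-out as reference there were 0 in heart and p66-/- liver and 2 in lung. As the mean of all probe sets, p53-/- liver had 1, p53-/- lung 1 and p66-/- thymus 0. Median centring gave 1 in p53-/- liver, repeated quantile normalization and cyclic loess gave 0 in p66-/- liver, and brighter genes alone gave 1 in p66-/- thymus. As the mean of all probe sets, the p53-/- lung difference of Slc25a24 was -0.19 and that of Slc25a36 -0.59. The cause of these shifts was not tested. Knock-outs were compared with WT within tissues through the tissue block, and no further pairing exists with 1 array per tissue and genotype.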
